A study of Homo sapiens with 12 samples.

Results

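Purine and pyrimidine nucleotides are the building blocks of RNA and DNA, and 10 enzyme genes of their de novo synthesis are described here, out of 60708 genes in the count tables. They were taken by symbol from both tables. The purine route was covered by PPAT, GART, PFAS, PAICS, ATIC, and IMPDH2, and the pyrimidine route by CAD, DHODH, UMPS, and CTPS1. The question was how the mRNAs of these enzymes differed from vehicle in cells under a mitochondrial or an endoplasmic reticulum stressor.

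HCT116 cells, an established human colon cancer line without an engineered genotype, received oligomycin A (OA) or tunicamycin (TN) for 24 h. OA blocks the mitochondrial ATP synthase, and TN blocks N-linked glycosylation in the endoplasmic reticulum. Each stressor had 3 treated replicates and its own 3 DMSO-treated replicates (vehicle only), which gave 12 total RNA libraries, all grown with serum. The labels give a dose of 5 µg/mL for both stressors, whereas the study's methods state a different one for OA, so the OA dose is not settled here. Library totals ranged from 9884124 to 24983573 counts, with 9884124 to 13719776 in the treated and 12618634 to 24983573 in the DMSO libraries. The signal recognition particle RNA RN7SL1 took 6.02% to 8.11% of the counts with DMSO and 8.4% to 17.9% with a stressor, and all levels below were scaled by TMM to limit the effect of such genes. The 10 enzymes held 0.128% to 0.223% of the counts. Of the 8 colon epithelial markers, 7 passed the filter on low counts (all but CEACAM5), and the sum over the list was 4240 to 6250 CPM (counts scaled to library size) in the DMSO libraries and 5060 to 9060 CPM in the treated libraries. Of 10 markers of leukocytes, endothelium, fibroblasts, muscle, and hepatocytes, 2 passed the filter, and the sum over all 10 was 2.02 to 3.1 CPM with DMSO and 6.33 to 15.3 CPM with OA, and 3.99 to 6.18 CPM with DMSO and 5.16 to 8.11 CPM with TN. The part due to COL1A1 was 1.15 to 2.19 CPM with DMSO and 3.42 to 12.4 CPM with OA (log2 fold change 2.02, SE 0.54, adjusted p = 0.0723), with PTPRC, the leukocyte marker, and CD3E at or near 0. The epithelial genes CDH1 and CLDN4 rose with both stressors (log2 fold changes of 1.59 to 1.81). Of the 7 tested epithelial markers, 2 were below 0 with OA and 1 with TN. Those with OA were CDX2 (-0.76, SE 0.29, adjusted p = 0.164 by edgeR), whose groups did not overlap, and EPCAM (-0.23, SE 0.36). The part of either list in the results below was not tested.

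De novo synthesis builds the purine ring stepwise on phosphoribosyl pyrophosphate (PRPP), whereas the pyrimidine ring is made first and joined to PRPP afterwards. DHODH is the one pyrimidine enzyme that sits in the inner mitochondrial membrane: it hands the electrons of dihydroorotate to ubiquinone, which the respiratory chain must reoxidize. Salvage enzymes recover finished bases and nucleosides in parallel, and growing tumor cells are known to draw on both routes.

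PPAT and PAICS lie head to head on chromosome 4, and the 125 bases between their outermost annotated starts are shown because both genes begin there (hg38, chr4:56435616-56435740, plus strand, which runs from the PPAT start to the PAICS start).
PPAT-PAICS: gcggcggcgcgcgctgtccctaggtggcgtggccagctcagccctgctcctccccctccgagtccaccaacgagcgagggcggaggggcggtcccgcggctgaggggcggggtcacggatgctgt
Promoter windows of RefSeq (GRCh38.p14, 250 bases before to 50 after the start) were matched by symbol and by the start of the main transcript. This gave windows for 9 of the 10 genes, and IMPDH2 had none at that start. Each window was searched on both strands for the E-box CACGTG, to which MYC and related factors bind, for the cyclic AMP response element TGACGTCA, and for the element TGATGNAA that ATF4 and CHOP share. None of these 3 motifs contains another. The E-box was found in PPAT, ATIC, and DHODH, that is 3 of 9 windows, against 7.26% of 35116 windows of all genes. Its surroundings are given as 30 bases on each gene's own strand, with the motif in capitals (chr4:56435780-56435809, chr2:215312001-215312030, and chr16:72008573-72008602). Counted from the start of the main transcript, the motif lay 182 bases upstream for PPAT, 46 for ATIC, and 159 for DHODH. The annotated ATIC and DHODH genes begin further upstream, so the ATIC stretch lies inside its gene. The DHODH stretch spans the outermost annotated start of DHODH. The PPAT site lies inside the annotated PAICS gene, and the ATIC window holds another E-box downstream of the start, which is not shown.
PPAT: aacggagatttcCACGTGcagcaaatacag
ATIC: gggccggcgggcCACGTGataagcccggaa
DHODH: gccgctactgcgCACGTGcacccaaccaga
The cyclic AMP response element was found in 1 of 9 windows, that of UMPS, against 1.85% of all windows. TGATGNAA was in 0 of 9 windows against 3.62%. UMPS was one of the members with the smallest spread between libraries below, and its sequence upstream of the gene is printed with the element, 47 bases upstream of the main transcript's start, in capitals (chr3:124730202-124730432, plus strand).
UMPS: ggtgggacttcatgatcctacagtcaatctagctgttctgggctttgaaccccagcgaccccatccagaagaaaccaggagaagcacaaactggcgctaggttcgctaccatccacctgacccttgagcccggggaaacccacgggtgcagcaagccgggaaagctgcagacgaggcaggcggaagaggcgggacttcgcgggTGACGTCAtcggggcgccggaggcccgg
These matches describe the letters in the windows and no binding was measured.

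The genes lie at different loci apart from the PPAT-PAICS pair. In Gencode on hg38, PPAT covers chr4:56393362-56435615 on the minus strand and PAICS chr4:56435741-56464578 on the plus strand. GART is at chr21:33503931-33543491 (minus), PFAS at chr17:8247618-8270491 (plus), ATIC at chr2:215311956-215349773 (plus), and IMPDH2 at chr3:49024325-49029447 (minus). CAD is at chr2:27217369-27243943 (plus), DHODH at chr16:72008588-72027664 (plus), UMPS at chr3:124730433-124749273 (plus), and CTPS1 at chr1:40979300-41012565 (plus). Values refer to all exons of a gene, as counted by the authors. IMPDH2 shares 98.8% of its transcript at 98% identity or more with overlapping annotated genes. PPAT shares 42.2% at 95% identity with other annotated genes that include its pseudogene. PAICS shares 21.2% at 95% identity with its pseudogene and with a stretch of an unrelated gene. Reads of these members could have been lost or counted for another gene, which was not tested. The shared stretches were found with Gencode 44, whereas the authors counted with another Gencode version.

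Per kilobase of the main transcript, IMPDH2 had the highest mean level of the members in the unstressed cells and DHODH the lowest mean. In the DMSO libraries of OA, the level was 476 ± 119 CPM per kb for IMPDH2 (SD, n = 3 here and below), 94.7 ± 15.1 for GART, 51.0 ± 2.40 for PAICS, 29.2 ± 3.61 for CTPS1, and 24.9 ± 11.6 for PPAT. UMPS followed with 16.4 ± 1.40 CPM per kb, PFAS with 11.6 ± 2.45, CAD with 10.2 ± 1.56, ATIC with 7.56 ± 0.802, and DHODH with 6.85 ± 1.16. The neighbours CTPS1 and PPAT, PPAT and UMPS, PFAS and CAD, and ATIC and DHODH lay within their spread. In the DMSO libraries of TN, the order was the same for the first 3 and for DHODH, with PPAT (34.7 ± 11.7 CPM per kb) above CTPS1 (26.6 ± 3.24) and with ATIC, PFAS, and CAD within their spread of each other at 8.69 ± 1.77, 8.21 ± 2.81, and 7.99 ± 2.53. IMPDH2 stood at 426 ± 116 and DHODH at 5.86 ± 0.654 CPM per kb there, and DHODH lay within the spread of PFAS and CAD.

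With OA, 8 of the 10 mRNAs had a level below DMSO and none passed the test of all genes. The lowest relative levels were those of PAICS, PFAS, and PPAT at 43.7%, 49.8%, and 50% of the DMSO mean, while GART stood at 134%. The median log2 fold change over the 10 was -0.67, against -0.02 over the 14681 tested genes. By edgeR's quasi-likelihood test, with p-values adjusted by the Benjamini-Hochberg method, 0 of 10 members were called lower, against 1.72% of all tested genes (2.76% were called higher). At an unadjusted p under 0.05, 4 members were lower (PAICS, PFAS, UMPS, and CTPS1) against 10.3% of the tested genes, and DESeq2 called the same 4 lower against 5.31%. With the replicate block, 5 members were called lower (PPAT, PAICS, PFAS, UMPS, and CTPS1) and 0 higher. In that fit, 3914 of the 14681 tested genes were called in either direction, but the OA numbers were not taken as pairs. With GC offsets, 5 members were called lower (PAICS, PFAS, DHODH, UMPS, and CTPS1) and 0 higher, while 2518 of the 14681 tested genes were called in either direction. The share of tested genes called lower is not given here for either fit. In 6 members (PAICS, PFAS, ATIC, DHODH, UMPS, and CTPS1), every OA library lay below every DMSO library, as in 15.5% of the tested genes.

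With TN, 8 of 10 mRNAs again had a level below DMSO, and PAICS, UMPS, and CTPS1 fell. Their levels were 2.31-fold, 2.28-fold, and 2.29-fold lower, respectively. The median log2 fold change of the 10 was -0.88, against -0.03 over 14432 tested genes. The 3 calls of 10 compare with 3.34% of the tested genes called lower (3.65% were called higher). The TN replicate numbers were taken as pairs from the data. These set replicate 1 apart but did not tell same-numbered from crossed pairs of replicates 2 and 3. With the replicate as a block, 8 members were called lower, against 15.3% of the tested genes. DESeq2 called 6 lower (PAICS, PFAS, ATIC, DHODH, UMPS, and CTPS1), against 7.15%. In those 6, the TN and DMSO libraries did not overlap, as in 16.8% of the tested genes. The 3 calls depended on the libraries. When any DMSO replicate, TN replicate 2, or TN replicate 3 was left out, 0 members passed, and 151 to 473 genes of the whole table did. Without TN replicate 1, 6 members and 2361 genes of the whole table passed. When levels were scaled to ACTB, PAICS and UMPS did not pass (adjusted p = 0.0721 and 0.0779), and PFAS and CTPS1 were called. In bulk RNA, fewer cells that express a gene and less RNA per cell cannot be told apart.

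**Figure D1:**
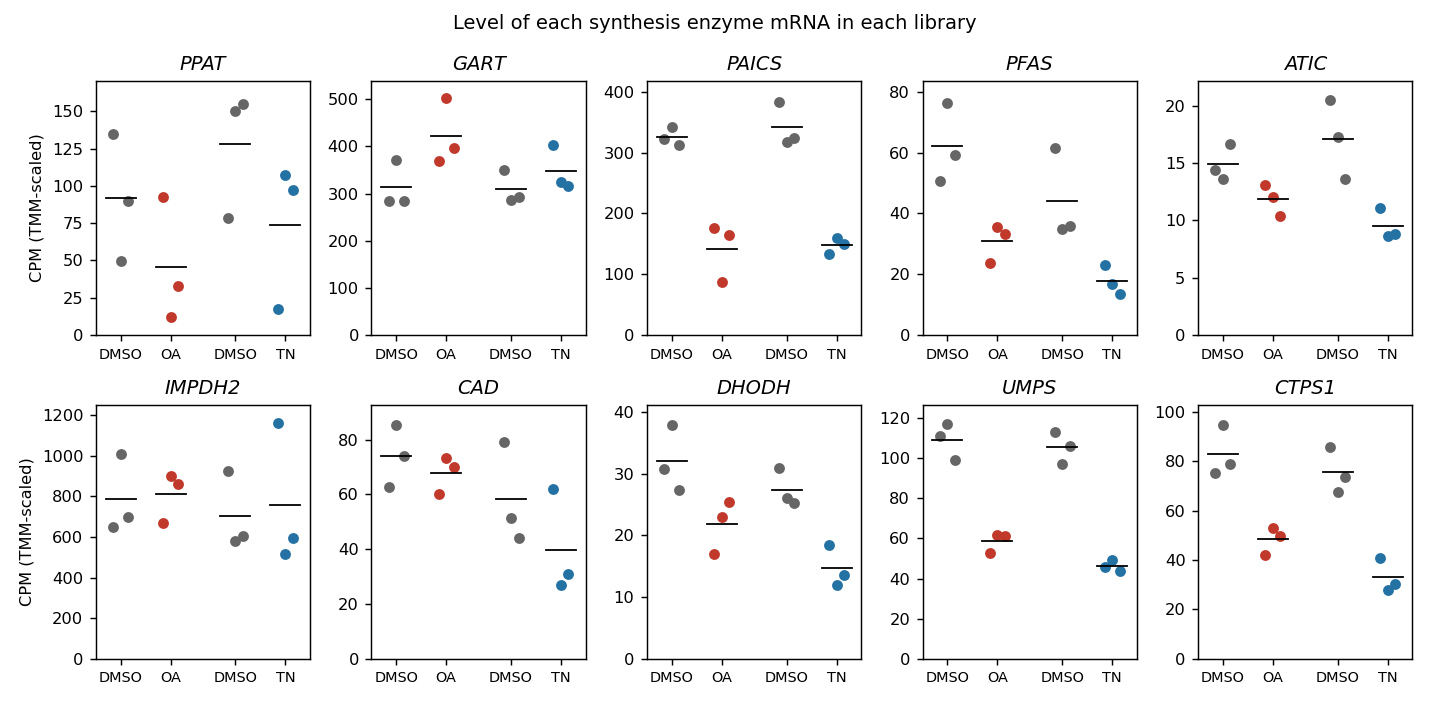
Level of each of the 10 mRNAs (y axis, TMM-scaled CPM, from 0) in each library, for DMSO and OA and for DMSO and TN (x axis). Points are libraries in replicate order and lines are means of 3. In PAICS, PFAS, ATIC, DHODH, UMPS, and CTPS1, all treated points lie below all points of their own DMSO group, whereas the PPAT, GART, IMPDH2, and CAD groups overlap.

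In the purine route, PPAT catalyzes the committed step on PRPP. Its mRNA was at 135, 49.9, and 89.9 CPM in DMSO replicates 1 to 3 and at 92.3, 12.3, and 32.9 CPM in OA replicates 1 to 3. The groups overlapped, with OA replicate 1 above 2 of the 3 DMSO libraries, although each OA library lay below the DMSO library of its number, and the log2 fold change was -1.0 (SE 0.67, adjusted p = 0.404). With TN, PPAT was at 78.3, 150, and 155 CPM in DMSO and at 17.7, 107, and 97.2 CPM in the treated libraries (log2 fold change -0.79, SE 0.61, adjusted p = 0.481). Each TN library was below the DMSO library of its number, and with the replicate block the value was -1.07 (adjusted p = 0.0321). The coefficient of variation of PPAT was the highest of the members with OA (90.7%), with DMSO of OA (46.5%), and with TN (66.1%), and with DMSO of TN it was 33.6%, next to 34.3% for PFAS. The PPAT value therefore moved with single libraries: with OA, the log2 fold change was -2.03 without OA replicate 1, -0.51 without OA replicate 2, and -0.53 without DMSO replicate 1. With TN, it ran from -1.15 without TN replicate 2 to -0.27 without TN replicate 1.

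The libraries also differed in how gene levels depended on the GC content of the transcripts, and the PPAT transcript is the most AT-rich of the members (37.9% GC). In OA and its DMSO group, the Spearman correlation of a library's deviations from its group mean with GC content, across 13082 genes, was -0.75, 0.69, and -0.10 in DMSO replicates 1 to 3. In OA replicates 1 to 3, it was -0.67, 0.55, and 0.03. The PPAT deviations, on the log2 scale, were 0.67, -0.76, and 0.09 in those 3 vehicle libraries and 1.46, -1.44, and -0.02 in the OA libraries. They thus had the opposite sign to the correlation in each of these 6 libraries, and likewise in each of the 6 libraries of TN and its DMSO group. Genes are not independent replicates, and these correlations are a description. After offsets for GC content, the PPAT log2 fold change was -0.70 with OA (adjusted p = 0.163) and -0.70 with TN (adjusted p = 0.102). With the offsets and the replicate block together, PPAT was called lower with TN (-0.76, adjusted p = 0.00952). It was also called lower with OA in that fit (-0.80, adjusted p = 0.0296), where the numbers were not taken as pairs. OA replicate 2, the library lowest in PPAT and PAICS, also had the highest RN7SL1 share of the OA libraries, at 17.9%, and the part of this in the levels was not tested.

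**Figure D2:**
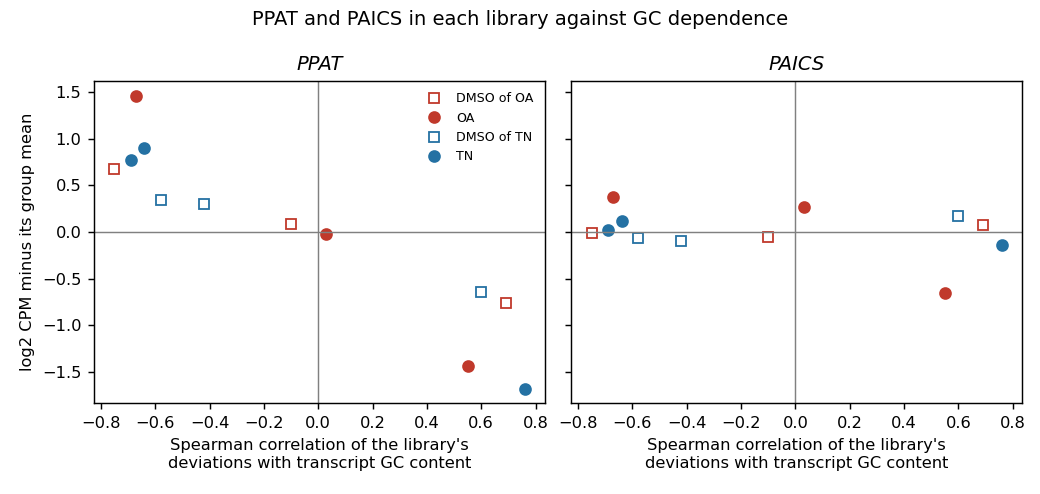
Deviation of the PPAT (left) and PAICS (right) level from its group mean (y axis, log2 CPM) against the Spearman correlation of the library's deviations with transcript GC content (x axis), 1 point per library, with squares for DMSO and circles for OA or TN. PPAT runs from 1.46 in OA replicate 1 to -1.68 in TN replicate 1 as the correlation goes from negative to positive, while PAICS stays between -0.65 and 0.37.

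GART, a protein with 3 enzyme activities of the purine route, was one of the members that were not lower. Its mRNA was at 285, 372, and 285 CPM in DMSO and at 368, 502, and 396 CPM with OA, and at 349, 287, and 292 CPM in DMSO and 402, 324, and 317 CPM with TN. The groups overlapped in both comparisons, although each treated library lay above the DMSO library of its number. The log2 fold changes were 0.43 (SE 0.24, adjusted p = 0.321) with OA and 0.17 (SE 0.20, adjusted p = 0.660) with TN.

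PFAS carries out the step between 2 of the GART reactions. It was at 50.5, 76.4, and 59.2 CPM in DMSO and at 23.8, 35.6, and 33.2 CPM with OA, without overlap (log2 fold change -1.01, SE 0.28, adjusted p = 0.0774). With TN, it went from 61.5, 34.8, and 35.9 CPM in DMSO to 23.2, 16.8, and 13.5 CPM. The log2 fold change of -1.31 (SE 0.32) was the lowest of the members with TN, with an adjusted p of 0.0543, and of 0.00131 with the replicate block. The DMSO libraries themselves differed, with replicate 1 well above the other two.

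PAICS joins the next carboxylation and ligation steps in 1 protein. It was at 322, 342, and 312 CPM in DMSO and at 176, 86.7, and 164 CPM with OA, so that the groups were separate and OA replicate 2 was the lowest (log2 fold change -1.19, SE 0.30, adjusted p = 0.0625). Without OA replicate 1 or without OA replicate 2, PAICS passed the test, with an adjusted p as low as 0.0342 in 1 of these fits. With TN, PAICS fell from 383, 317, and 324 CPM to 134, 160, and 149 CPM (log2 fold change -1.21, SE 0.19, adjusted p = 0.0132). PPAT, on the other side of the shared start region, had overlapping groups with both stressors, and the difference between the pair was not tested.

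ATIC closes the purine ring to give inosine monophosphate. Its levels were 14.4, 13.6, and 16.7 CPM in DMSO and 13.1, 12, and 10.4 CPM with OA, a small but complete separation (log2 fold change -0.33, SE 0.26, adjusted p = 0.471). With TN, it was at 20.5, 17.3, and 13.6 CPM in DMSO and at 11.1, 8.67, and 8.84 CPM in the treated libraries (log2 fold change -0.85, SE 0.26, adjusted p = 0.0912). With the replicate block, ATIC passed the test with an adjusted p of 0.0154.

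IMPDH2 turns inosine monophosphate toward guanine nucleotides and showed little difference. It was at 651, 1010, and 697 CPM in DMSO and at 671, 899, and 859 CPM with OA (log2 fold change 0.04, SE 0.26, adjusted p = 0.936). With TN, it was at 923, 581, and 606 CPM in DMSO and at 1160, 517, and 597 CPM (log2 fold change 0.11, SE 0.35, adjusted p = 0.890), where replicate 1 was the highest of both groups. The sign of both values changed with the scaling: with plain library totals, they were -0.17 and -0.09.

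In the pyrimidine route, CAD fuses the first 3 enzyme activities. Its mRNA was at 62.7, 85.4, and 74.0 CPM in DMSO and at 60.0, 73.2, and 70.1 CPM with OA, with overlapping groups (log2 fold change -0.13, SE 0.23, adjusted p = 0.775). With TN, it was at 79.1, 51.5, and 44 CPM in DMSO and at 62.0, 26.8, and 30.9 CPM (log2 fold change -0.54, SE 0.38, adjusted p = 0.436), and the value ran from -0.28 without DMSO replicate 1 to -0.98 without TN replicate 1. Replicate 1 was the highest of its group in both, and with the replicate block CAD was called lower (adjusted p = 0.0342). When levels were scaled to ACTB, the OA value turned to 0.35.

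DHODH, the step that feeds electrons to ubiquinone, was at 30.7, 37.9, and 27.3 CPM in DMSO and at 17.0, 23.0, and 25.4 CPM with OA. The groups did not overlap, but OA replicate 3 came close to DMSO replicate 3, and the log2 fold change was -0.55 (SE 0.27, adjusted p = 0.263). It was -0.08 when scaled to ACTB, and with GC offsets it was -0.70 and passed (adjusted p = 0.0374). With TN, DHODH was at 30.9, 26.0, and 25.3 CPM in DMSO and at 18.5, 12, and 13.5 CPM, again apart (log2 fold change -0.90, SE 0.25, adjusted p = 0.0716). With the replicate block, its adjusted p was 0.00704. For this enzyme, which needs the respiratory chain, the difference between the stressors was 0.28 on the log2 scale (OA minus TN, SE 0.33) with an unadjusted p of 0.405. It was 0.15 when the first DMSO replicate of TN was left out and 0.55 when TN replicate 1 was.

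UMPS completes uridine monophosphate and had the lowest coefficient of variation of the members in the OA (8.55%) and TN (5.91%) libraries. It was at 111, 117, and 98.9 CPM in DMSO and at 52.7, 61.7, and 61.1 CPM with OA (log2 fold change -0.90, SE 0.22, adjusted p = 0.0595). Without OA replicate 2, its adjusted p was 0.0429. With TN, UMPS fell from 113, 97.3, and 106 CPM to 45.7, 49.3, and 44 CPM (log2 fold change -1.19, SE 0.19, adjusted p = 0.0130). In both comparisons, the highest treated library was far below the lowest DMSO library.

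CTPS1 makes cytidine triphosphate. It was at 75.4, 94.7, and 79.0 CPM in DMSO and at 42.2, 53.2, and 49.9 CPM with OA (log2 fold change -0.78, SE 0.23, adjusted p = 0.0950). With TN, it fell from 85.7, 67.6, and 73.7 CPM to 40.8, 27.9, and 30.5 CPM (log2 fold change -1.20, SE 0.23, adjusted p = 0.0250). The 3 fallen mRNAs with TN, PAICS, UMPS, and CTPS1, thus belong to both routes.

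**Figure D3:**
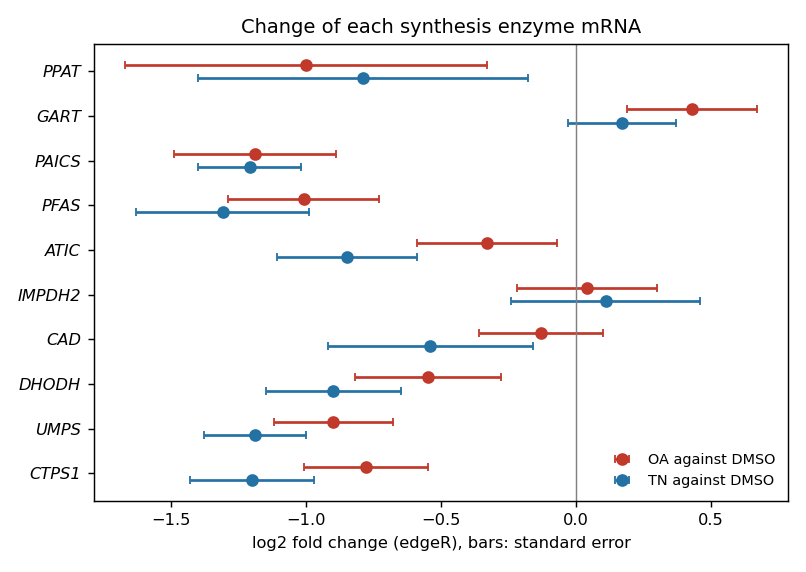
Log2 fold change of each mRNA (x axis, edgeR, bars are the standard error) with OA and with TN against their own DMSO libraries (3 against 3). PAICS, PFAS, and PPAT are at -1.0 or lower with OA, PAICS, PFAS, UMPS, and CTPS1 are between -1.31 and -1.19 with TN, and GART and IMPDH2 are above 0 in both.

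A difference between OA and TN was tested directly in a fit of all 12 libraries, and 0 of 15429 genes passed by edgeR (348 at an unadjusted p under 0.05, and 2 by DESeq2). Among the 10 members, the difference (OA minus TN) ran from -0.26 for PPAT (SE 1.04) to 0.46 for ATIC (SE 0.33), with unadjusted p-values from 0.191 to 0.920. PAICS was nearest to 0, at -0.04 (SE 0.39), and CAD and CTPS1 stood at 0.37 (SE 0.44) and 0.35 (SE 0.29). Leaving out 1 library moved the CAD difference to between 0.05 (DMSO replicate 1 of TN) and 0.89 (TN replicate 1), and that of CTPS1 to between 0.21 and 0.60 with the same libraries. With standard errors of 0.25 or more on the log2 scale, moderate differences between the stressors were not detectable.

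Both IMPDH2 and CTPS1 have a sister enzyme for the same reaction, and the share of each in the summed counts of its pair was compared in two-sided exact permutation tests, which with 3 against 3 libraries cannot give a p below 0.1 and so cannot pass a threshold of 0.05. IMPDH2 took 88.8%, 87.2%, and 87.4% of the IMPDH counts in DMSO and 93.8%, 92.7%, and 93.4% with OA, a difference of 5.51 percentage points between means of 87.8 ± 0.853% and 93.3 ± 0.560% (SD, n = 3, exact p = 0.1). With TN, the share went from 89.0%, 89.3%, and 90.7% to 94.3%, 93.4%, and 94.0%, which is 4.20 points (exact p = 0.1). All treated libraries were above all DMSO libraries. IMPDH1 itself was at 82.4, 148, and 101 CPM in DMSO and at 44.3, 70.8, and 60.7 CPM with OA (log2 fold change -0.91, SE 0.31, adjusted p = 0.122). With TN, IMPDH1 had a log2 fold change of -0.76 (SE 0.35, adjusted p = 0.238, and 0.00733 with the replicate block).

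The CTPS1 share was 72.1%, 71.9%, and 72.2% of the CTPS counts in DMSO and 60.0%, 56.7%, and 57.1% with TN, a difference of -14.16 percentage points (exact p = 0.1), without overlap. With OA, the shares of 70.4%, 74.1%, and 71.6% in DMSO and 67.5%, 76.1%, and 64.4% overlapped, and the difference of -2.64 points had an exact p of 0.5. It was -6.03 points without OA replicate 2 and -0.16 points without OA replicate 3. CTPS2 had log2 fold changes of -0.58 (SE 0.27, adjusted p = 0.240) with OA and -0.30 (SE 0.21, adjusted p = 0.443) with TN.

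**Figure D4:**
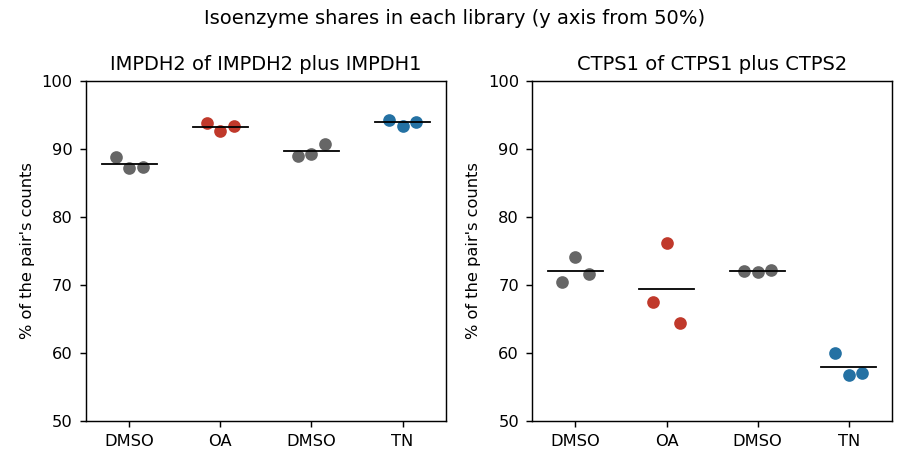
Share of IMPDH2 in the counts of IMPDH2 plus IMPDH1 (left) and of CTPS1 in those of CTPS1 plus CTPS2 (right), in percent of the pair's counts (y axis, from 50%), for each library with DMSO, OA, or TN. Lines are means of 3. The mean IMPDH2 share differs from DMSO by 5.51 points with OA and 4.20 points with TN, and the mean CTPS1 share by -14.16 points with TN, where 0.1 is the smallest p the test allows.

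The remaining synthesis steps and the PRPP supply were covered by 10 further genes. With OA, 8 of them were below 0, 0 were called by edgeR, 4 were lower at an unadjusted p under 0.05 (10.3% of the tested genes were), and the median log2 fold change was -0.54. With TN, 8 were below 0 with a median of -0.50, and 2 of 10 fell, against 3.34% of the tested genes. PRPS2, a PRPP synthetase, fell from 102, 105, and 94.6 CPM to 27.4, 30.4, and 32.9 CPM with TN (log2 fold change -1.73, SE 0.19, adjusted p = 0.00535). GMPS, which follows IMPDH in guanine nucleotide synthesis, fell by 1.03 on the log2 scale (SE 0.18, adjusted p = 0.0175), a call that was lost with GC offsets (-0.74, adjusted p = 0.111) but not with offsets and replicate block together (adjusted p = 0.000353). With OA, PRPS2 had -1.58 (SE 0.44, adjusted p = 0.0810) and GMPS -0.87 (SE 0.27, adjusted p = 0.106).

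The genes of deoxynucleotide supply, which lead from the products of the members to DNA precursors, had the lowest median of the lists. It was -1.56 with OA and -1.73 with TN, and 4 of 7 genes fell with each stressor, against 1.72% of the tested genes with OA and 3.34% with TN. These were the ribonucleotide reductase subunits RRM1 and RRM2, the thymidylate synthase TYMS, and DUT, which removes dUTP. RRM2 fell from 395, 424, and 397 CPM to 91.0, 85.2, and 115 CPM with OA (log2 fold change -2.06, SE 0.23, adjusted p = 0.0116), and by 2.24 with TN (SE 0.34, adjusted p = 0.0114). TYMS fell by 1.82 and 2.06, RRM1 by 1.66 and 1.73, and DUT by 1.56 and 1.76 on the log2 scale with OA and TN, respectively. The highest treated library was below the lowest DMSO library for RRM2, RRM1, TYMS, and DUT in both comparisons.

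Folate enzymes, which supply the one-carbon units for purine and thymidylate synthesis, lay on both sides of 0. Of 7 tested with OA, 3 were below 0 (median 0.25) and SHMT1 fell (-1.32, SE 0.29, adjusted p = 0.0464). The shares of all tested genes called lower were 1.72% with OA and 3.34% with TN. Of 6 tested with TN, 2 were below 0 (median 0.42), and both fell. These were MTHFD1 (-1.18, SE 0.26, adjusted p = 0.0410) and SHMT1 (-1.15, SE 0.25, adjusted p = 0.0380). MTHFD1 had -0.95 with OA (SE 0.23, adjusted p = 0.0585).

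Among 14 salvage genes, 8 were below 0 with OA (median -0.16) and 7 with TN (median -0.19), with 1 called lower and 1 called higher in each. Over all tested genes, 1.72% were called lower and 2.76% higher with OA, and 3.34% lower and 3.65% higher with TN. UPP1, the uridine phosphorylase that splits uridine into base and sugar phosphate, rose in both. It was at 9.96, 18.0, and 10.4 CPM in DMSO and at 143, 1290, and 150 CPM with OA (log2 fold change 5.36, SE 0.96, adjusted p = 0.0292), with OA replicate 2 far above the other 2 libraries, and without that library the log2 fold change was 3.50. With TN, UPP1 rose from 12.2, 12.1, and 11 CPM to 148, 68.4, and 65.3 CPM (log2 fold change 3.00, SE 0.37, adjusted p = 0.00662). The thymidine kinase TK1 fell with OA (-1.43, SE 0.33, adjusted p = 0.0498), just within the threshold, and had -1.36 with TN (SE 0.57, adjusted p = 0.198, and 0.00480 with the replicate block). The purine salvage enzyme HPRT1 fell with TN (-1.39, SE 0.26, adjusted p = 0.0248) and had -0.74 with OA (SE 0.30, adjusted p = 0.184).

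**Figure D5:**
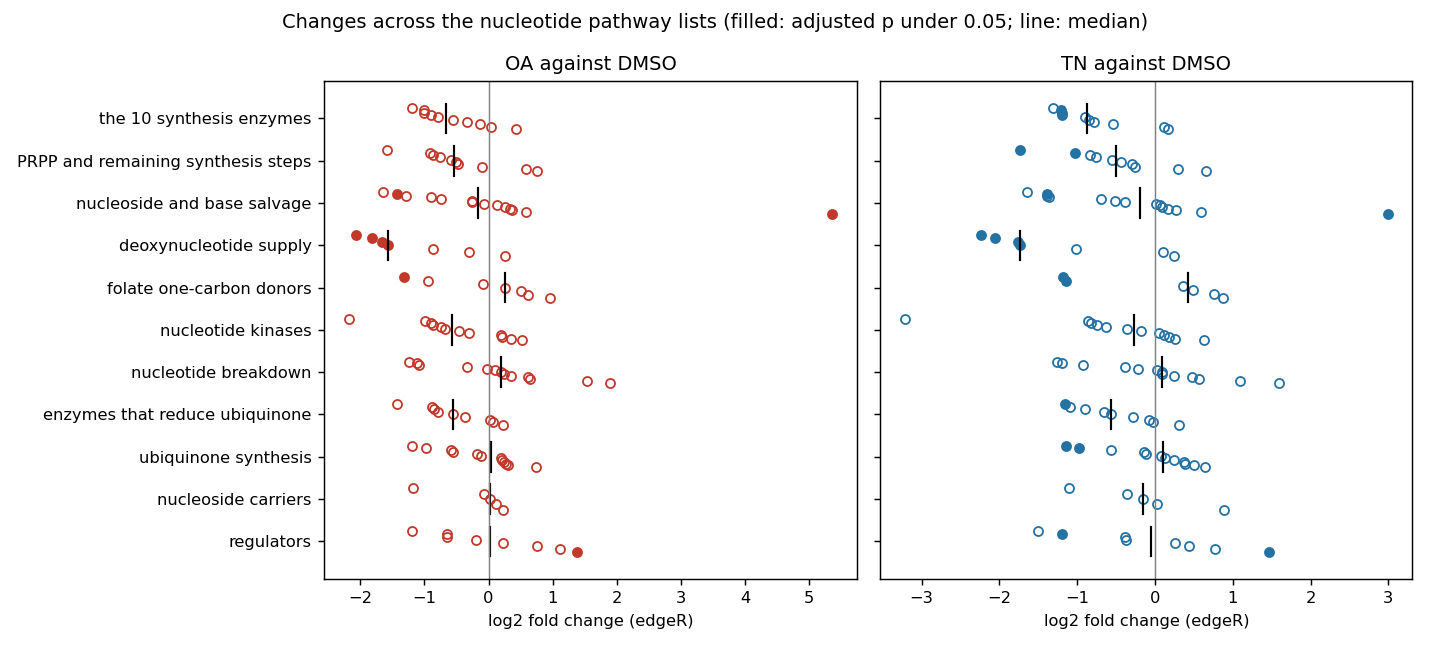
Log2 fold change (x axis, edgeR) of each tested gene in the lists of nucleotide metabolism (y axis) with OA (left) and TN (right). Filled points have an adjusted p under 0.05 and vertical lines are medians. Deoxynucleotide supply has the lowest median in both panels, at -1.56 and -1.73, and the point at 5.36 with OA and 3.00 with TN is UPP1.

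DHODH shares its electron acceptor with other ubiquinone-reducing enzymes. Of the 9 tested, DHODH included, 6 were below 0 with OA (median -0.55, 0 called by edgeR, 2 lower at an unadjusted p under 0.05 against 10.3% of the tested genes) and 8 with TN (median -0.56). With TN, 1 of 9 fell, against 3.34% of the tested genes, namely CHDH, the choline dehydrogenase (-1.16, SE 0.27, adjusted p = 0.0466), and with OA it had -0.88 (SE 0.39, adjusted p = 0.220). GPD2, the mitochondrial glycerol phosphate dehydrogenase, had the lowest p of the list with OA (-1.43, SE 0.54, adjusted p = 0.160). The ubiquinone synthesis genes had medians near 0, 0.05 with OA and 0.11 with TN. Of its 12 tested genes, PDSS1 and COQ3 fell with TN (-1.15 and -0.98, SE 0.22 and 0.21, adjusted p = 0.0240 and 0.0349), and none was called by edgeR with OA, where 2 were lower at an unadjusted p under 0.05 and COQ3 had the lowest (-1.20, SE 0.31, adjusted p = 0.0681).

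In the separate TMM fits of OA and of TN, without a replicate block or GC offsets, no gene among the kinases, the breakdown enzymes, or the nucleoside carriers was called by edgeR with either stressor. At an unadjusted p under 0.05, 5 of 12 kinases were lower with OA and 3 with TN, and 1 of 5 carriers was lower with each. Of 13 breakdown enzymes, 1 was lower and 3 were higher with OA, and 3 were lower and 3 higher with TN, while 1 carrier was higher with TN. Over all tested genes, 10.3% were lower and 13.0% higher at this threshold with OA, and 12.1% lower and 12.2% higher with TN. With the replicate block, 4 kinases, 3 breakdown enzymes, and 1 carrier were called lower with TN and 3 breakdown enzymes higher, against 15.3% and 11.8% of the tested genes. With GC offsets and no block, NT5E (adjusted p = 0.0240 with OA and 0.000475 with TN) and SLC29A1 (adjusted p = 0.0100 and 0.00267) passed, among others. The kinase with the lowest p was CMPK2 with OA (-2.18, SE 0.58, adjusted p = 0.0723) and AK4 with TN (-0.86, SE 0.21, adjusted p = 0.0557, and 0.00859 with the replicate block). The OA value of CMPK2 rests on few reads, 43, 50, and 67 counts in DMSO and 5, 3, and 10 counts with OA. CMPK2, a mitochondrial kinase that is also induced by interferon, was at 0.767 CPM in DMSO replicate 1 of TN and at 50.6 and 50.4 CPM in replicates 2 and 3. In TN replicates 1 to 3, CMPK2 was at 0.316, 3.04, and 7.38 CPM. Its log2 fold change with TN was -3.22 (SE 1.37, adjusted p = 0.203, and 0.000804 with the replicate block). PUDP had the lowest p of the breakdown enzymes with OA (-1.09, SE 0.28, adjusted p = 0.0648) and NT5E, the surface 5'-nucleotidase, with TN (1.09, SE 0.27, adjusted p = 0.0532, and 0.00229 with the replicate block). The nucleoside carrier SLC29A1 had -1.17 with OA (SE 0.33, adjusted p = 0.0795) and -1.10 with TN (SE 0.33, adjusted p = 0.0912, and 0.00419 with the replicate block).

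Of 8 regulators of these pathways, 4 were below 0 in each comparison. ATF4, a transcription factor of the integrated stress response, rose from 462, 614, and 460 CPM to 1130, 1570, and 1310 CPM with OA (log2 fold change 1.38, SE 0.25, adjusted p = 0.0280), and from 501, 438, and 461 CPM to 1540, 1130, and 1170 CPM with TN (1.46, SE 0.20, adjusted p = 0.00906). MYC, a known activator of nucleotide synthesis genes, was at 185, 244, and 188 CPM in DMSO and at 139, 95.4, and 159 CPM with OA (-0.65, SE 0.27, adjusted p = 0.196). With TN, MYC fell from 257, 206, and 198 CPM to 122, 90, and 78.6 CPM (-1.19, SE 0.24, adjusted p = 0.0292). ACTB, the actin gene used as a reference in the study's qPCR, had -0.49 (SE 0.24, adjusted p = 0.256) and -0.35 (SE 0.24, adjusted p = 0.426) with OA and TN. When levels were scaled to ACTB, the median of all genes moved to 0.42 with OA and 0.30 with TN, and that of the 10 members to -0.20 and -0.54, which is still below the median of all genes in each.

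The calls named outside the 10 members were also sensitive to single libraries. With OA, TK1, UPP1, RRM1, RRM2, TYMS, DUT, SHMT1, and ATF4 did not pass when any one DMSO library was left out, when 3 to 5 genes of the whole table passed, and of these 8 genes RRM2 alone passed without OA replicate 3. The epithelial markers CDH1 and CLDN4 passed in 2 of 6 such fits with OA, and in 4 and 6 of 6, respectively, with TN. With OA, the log2 fold changes of the 8 genes and of these markers kept their sign in all 6 fits. They ran from -1.98 to -2.21 for RRM2 and from 1.24 to 1.58 for ATF4. With TN, PRPS2, UPP1, and RRM2 passed in all 6 such fits, with adjusted p-values of at most 0.0482. ATF4 lost its call without DMSO replicate 2 or 3, RRM1 without DMSO replicate 3, TN replicate 2, or TN replicate 3, and DUT without DMSO replicate 2 or 3 or TN replicate 3. TYMS lost its call without DMSO replicate 2 or 3 or TN replicate 2 or 3, and HPRT1 without any DMSO replicate or TN replicate 2. GMPS, MTHFD1, SHMT1, CHDH, PDSS1, COQ3, and MYC passed only without TN replicate 1. The largest adjusted p in these fits was 0.0745 for TYMS, 0.128 for HPRT1, and 0.170 for CHDH. With the replicate block, the counts called lower with TN were 4 of 10 genes for the PRPP and remaining steps, 5 of 14 for salvage, and 5 of 7 for deoxynucleotide supply. They were 2 of 6 for the folate enzymes, 4 of 9 for the ubiquinone-reducing enzymes (DHODH included), 3 of 12 for ubiquinone synthesis, and 2 of 8 for the regulators. Of all tested genes, 15.3% were called lower in that fit. Called higher were 2 salvage genes, 2 folate enzymes, 1 ubiquinone synthesis gene, and 2 regulators, against 11.8%.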

How the data were processed

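Raw counts per gene of 12 RNA-seq libraries (4 groups of 3) were analysed. Per the study's methods, the authors aligned reads to hg38 with STAR and counted them per gene with a Gencode annotation, and they deposited the counts without normalization. The strand setting of the counting is not given in the sources used here, whereas the kit keeps strand. Tables of the authors' own DESeq2 comparisons (fold changes and p-values) were not used. All per-sample columns were assigned from their names.

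Genes passing filterByExpr were tested separately for OA and TN in edgeR 4.0.16 under R 4.3.3 (quasi-likelihood F test, TMM, two-sided, Benjamini-Hochberg over all tested genes, adjusted p under 0.05). Standard errors were derived from the fold change and its F statistic. CPM are TMM-scaled, and lengths and GC content are from the main (MANE Select) transcript in Gencode 44. Copies were sought with blastn 2.17.0. Shares were compared by exact permutation. Alternatives were DESeq2 1.42.0, other scalings and filters, GC offsets, a replicate block, a fit of all libraries, and leaving out each library. The fits were tested on simulated data, whose results are not given here.

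Deviations from the group mean (log2 CPM, prior count 2) correlated between same-numbered TN and DMSO libraries at 0.64, 0.41, and 0.43, all above the minimum of 0.1, so the TN numbers were taken as pairs from the data and not from the labels. Replicates 2 and 3 also correlated across numbers (0.38 and 0.44), so the data set replicate 1 apart but do not tell those pairs from crossed ones. Replicates are labelled biological without further detail. The edgeR and DESeq2 p-values set the difference between groups against the spread between these replicates.

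Named genes were all 10 members, every gene of the other lists that passed the test in either comparison or otherwise the one with the lowest p, and IMPDH1, CTPS2, MYC, ATF4, and ACTB. One listed gene is not reported here. The members and lists were chosen with earlier results of these data known. The least counted member value was 94 counts.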

Additional observations from a re-analysis of the deposited data

How the results depend on the processing

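With OA, 658 genes and 0 members were called, and the members' median was -0.67. DESeq2 gave 1927 genes and 4 members, library totals 747 genes and 3 members (median -0.88), and ACTB scaling 1425 genes and 0 members (median -0.20). No filter gave 1572 genes and 2 members, GC offsets 2518 genes and 5 members, and a fit of all 12 libraries 1681 genes and 4 members (median -0.75). With TN, 1009 genes and 3 members were called. DESeq2 gave 2162 genes and 6 members, library totals 1404 genes and 6 members, and ACTB scaling 1418 genes and 2 members (median -0.54). No filter gave 1648 genes and 4 members, GC offsets 3380 genes and 7 members, and the fit of all libraries 1347 genes and 6 members. For the stressor difference, DESeq2 called 2 genes.

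With the replicate block, 3914 genes and 5 members were called with OA and 3915 genes and 8 members with TN. With block and GC offsets together, the counts were 3773 and 6 (median -0.75) with OA and 5579 and 9 with TN, where GART was called higher. PPAT was among the members called with OA in both fits with the block (-1.32 and -0.80). Same-numbered OA and DMSO libraries correlated at 0.62, 0.54, and 0.09, so their numbers were not taken as pairs.

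Leaving out 1 library gave 3 to 1179 genes and 0 to 2 members with OA, with a median of -0.75 to -0.50, and 151 to 2361 genes and 0 to 6 members with TN. The stressor difference then gave at most 4 genes. The cause of these shifts was not tested.

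Signs turned for values that did not pass the test. IMPDH2 with OA was -0.17 with library totals, -0.10 with GC offsets, -0.09 with block and GC offsets, -0.05 with all libraries, and -0.05 to 0.31 without 1 library. IMPDH2 with TN was -0.09 with library totals and -0.30 to 0.34 without 1 library. With ACTB scaling, ATIC and CAD with OA were 0.11 and 0.35, and CAD was -0.20 to 0.03 without 1 library. The PAICS stressor difference was 0.01 by DESeq2 and by library totals. Without 1 library, the stressor difference ran from -0.28 to 0.24 for PAICS, -0.40 to 0.38 for IMPDH2, -1.38 to 0.20 for PPAT, and from -0.13 to 0.54 for PFAS. PAICS, PFAS, UMPS, CTPS1, DHODH, and PPAT were below 0 in every fit of OA and of TN.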
